A study of Mus musculus with 16 samples.

Results

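Psrc1, Ly6d, Lcn2, Spink1, Sprr1a and Tmem54 were far lower in nontumor liver than in Nras/Myc liver tumors of the same cohort of mice. In transcript abundance (rescaled TPM), nontumor group means were 0.24 to 11.9 for 5 of them and 10.1 and 46.0 for Lcn2. They are 6 of 20601 listed genes, of which 13432 were tested, and were chosen by their measured rise in tumor against nontumor tissue on a normal diet, which was among the largest of all. Their values on that diet are therefore a description. The tumors and nontumor liver of mice on a ketogenic diet did not enter the choice, and the tests of the members below compare them. The spread in those tests was estimated over the libraries of both diets.

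All mice carried the same oncogene model. Each had received 1 µg of a human c-Myc construct, 19 µg of a human N-Ras construct and 2 µg of a plasmid for the Sleeping Beauty transposase, an enzyme that inserts the constructs into the DNA of liver cells, by hydrodynamic delivery. For the last 4 weeks before harvest at week 8, mice ate either a ketogenic diet (KD; 89.5% fat, 10.4% protein, 0.1% carbohydrate) or a normal diet (ND). Polyadenylated RNA was sequenced from 16 samples of 8 mice, in 4 groups of 4 that cross the diet (KD or ND) with the tissue (tumor or nontumor). The nontumor tissue came from livers that had received the plasmids too, and no group without plasmids was analysed here. Strain, age and the promoters of the constructs were not given in the sources used here. The labels do not say which tumor and nontumor sample share a mouse, so p-values reflect no more than the spread among these 16 samples.

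Levels are rescaled TPM, that is, the deposited abundance per transcript length divided by a factor per library that aligns the median gene across libraries. Reads recovered from the TPM steps came to between 3519047 and 14074331 per library over the listed genes. The listed genes held 7.38% of the TPM total in ND nontumor 4 and 49.96% to 88.4% in the other 15 libraries, and the TPM of ND nontumor 4 were divided by the smallest factor, 0.128. Its rescaled values were the highest of the ND nontumor group for 5 of the 6 members. The tissue labels matched their defining genes. Albumin (Alb) ran from 11816 to 81787 in all 16 libraries, and alpha-fetoprotein (Afp), a fetal liver and tumor product, spanned 5.37 to 409 in KD tumors against 2.42 to 3.35 in KD nontumor liver, and 11.3 to 44.5 in ND tumors against 0.49 to 1.82 in ND nontumor liver.

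The members come from unrelated protein families. Psrc1 encodes a microtubule-binding protein of the mitotic spindle. Ly6d is a small lipid-anchored surface protein of the Ly6/uPAR family, known from keratinocytes and lymphoid progenitors. Lcn2, lipocalin-2, is a secreted protein that binds bacterial iron carriers and belongs to the acute phase and NF-kB response. Spink1 is a Kazal-type inhibitor of trypsin made by the exocrine pancreas and by several tumors. Sprr1a is a small proline-rich protein that is cross-linked into the cornified envelope of squamous epithelium and is a classical target of AP-1, the transcription factor at the end of RAS and ERK signalling. Tmem54 encodes a membrane protein of several passes. In healthy adult liver, hepatocytes secrete Lcn2 mainly during an acute phase response.

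In mm10 (GRCm38, GENCODE M21), Psrc1 lies on the plus strand at chr3:108383839-108388231 and Sprr1a on the minus strand at chr3:92483952-92485895. Lcn2 lies on the minus strand at chr2:32384633-32388252, Tmem54 on the plus strand at chr4:129105548-129111626 and Ly6d on the minus strand at chr15:74762056-74763620. The 5 are protein-coding genes, and their deposited TPM gave whole reads over the union of their annotated exons.

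Upstream sequence of 3 members is shown because Sprr1a is known for AP-1 sites in its promoter. The members share a rise in tumor because they were chosen for it. The bases before the start site, from RefSeq on GRCm38.p6, are given from 5′ to 3′ on each gene's own strand. The Sprr1a stretch is 236 bases and ends at -15, since the 14 bases next to the start site lie in an annotated exon, and the others end at -1. Capitals mark matches to 7 motifs, named after the sequences. The stretches are chr3:92485896-92486131 on the minus strand for Sprr1a, chr4:129105298-129105547 on the plus strand for Tmem54 and chr3:108383588-108383837 on the plus strand for Psrc1.
Sprr1a: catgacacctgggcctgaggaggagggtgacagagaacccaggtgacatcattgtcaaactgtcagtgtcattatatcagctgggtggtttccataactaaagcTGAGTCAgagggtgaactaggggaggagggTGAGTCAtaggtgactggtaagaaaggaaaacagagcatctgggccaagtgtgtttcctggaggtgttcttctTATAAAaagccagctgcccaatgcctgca
Tmem54: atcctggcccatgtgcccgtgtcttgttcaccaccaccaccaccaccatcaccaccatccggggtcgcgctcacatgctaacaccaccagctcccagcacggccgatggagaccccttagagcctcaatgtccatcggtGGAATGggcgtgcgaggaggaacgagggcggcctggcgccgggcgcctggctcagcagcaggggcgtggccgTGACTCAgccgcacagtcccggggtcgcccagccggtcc
Psrc1: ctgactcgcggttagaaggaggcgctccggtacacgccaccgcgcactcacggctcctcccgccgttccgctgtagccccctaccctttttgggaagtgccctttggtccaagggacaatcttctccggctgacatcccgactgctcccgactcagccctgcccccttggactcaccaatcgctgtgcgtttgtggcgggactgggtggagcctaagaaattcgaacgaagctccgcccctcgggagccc
Positions are counted backwards from the base before the start site (-1). The motifs, read on both strands over 250 bases upstream, were AP-1 (TGANTCA), CRE (TGACGTCA), NF-kB (GGANTTTCC), C/EBP (TTNCGNAA), TEAD (GGAATG), the E-box bound by MYC (CACGTG) and the TATA box (TATAAA). Sprr1a held TGAGTCA at -146 to -140 and again at -116 to -110, and TATAAA at -43 to -38. Tmem54 held TGACTCA at -39 to -33 and GGAATG at -111 to -106. The 4 windows read were those of Sprr1a, Tmem54, Psrc1 and Lcn2, and Psrc1 and Lcn2 held none of the 7. The Lcn2 window begins inside an annotated exon of Lcn2, so none of its 250 bases are shown. Its lack of matches therefore does not describe sequence upstream of every Lcn2 start site. No matches overlapped each other. Among 32851 windows of the same length, 6.75% held the AP-1 letters, 12.4% the TATA letters, 12.6% the TEAD letters and 6.02% the E-box. The NF-kB letters were in 1.07% of windows, the C/EBP letters in 2.04% and the CRE in 1.55%. These letters are a description and were not tested for binding.

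On the normal diet, which chose the genes, the ratio of the tumor mean to the nontumor mean ran from 67.2 for Ly6d to 143 for Psrc1. It ran from 111 (Lcn2) to 339 (Tmem54) on deposited TPM, and from 100.7 (Lcn2) to 321 (Tmem54) on rescaled TPM without ND nontumor 4, where Ly6d was at 147, Sprr1a at 268 and Psrc1 at 214. On the log2(rescaled TPM + 1) scale, which holds down the change of low genes, the 6 differences ranged from 5.33 (Tmem54) to 6.43 (Psrc1). Only Cyp2a4 (6.62) stood above all 6, and Cyp2b9 (5.76) stood between Lcn2 and Spink1. Tmem54 was the lowest member, and Cyp2a4 and Cyp2b9 above it are not members. Akr1c18 (5.28) and Erich4 (4.84) came next. This order was read among genes without predicted or clone names that passed as higher without overlap. They also had an ND tumor mean of at least 5. Lowest ND tumors exceeded the highest ND nontumor library 7.78-fold (Sprr1a) to 56.3-fold (Psrc1). Groups did not overlap for 6 of 6 members, a pattern favoured by choosing the largest rises on this same diet. Over all tested genes, chosen or not, 13.8% were higher in tumor without overlap.

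On the ketogenic diet all 6 members rose in tumor as well. KD tumors and KD nontumor liver did not overlap for any of the 6, a pattern that 15.8% of tested genes showed in this direction. By limma with Benjamini-Hochberg adjustment over 13432 genes, 6 of 6 passed as higher, against 16.3% of genes tested (16.2% were lower). Ranked by size among all tested genes, Ly6d was 1, Lcn2 2, Psrc1 6, Spink1 8, Sprr1a 13 and Tmem54 16. The ratio of means ran from 22.2 (Lcn2) to 142 (Sprr1a), the latter against 5 nontumor reads in all. Without KD nontumor 2 it was 105 for Lcn2 (22.2 with it), 236 for Ly6d (55.2), 46.5 for Tmem54 (27.99), 76.6 for Psrc1 (51.4) and 107 for Sprr1a. The other 3 KD nontumor libraries hold 1 Spink1 read, too few for a ratio. The samples are bulk tissue, in which fewer cells of a type and less RNA per cell cannot be told apart. Comparisons on the 2 diets use separate tumors and separate nontumor samples.

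**Figure D1:**
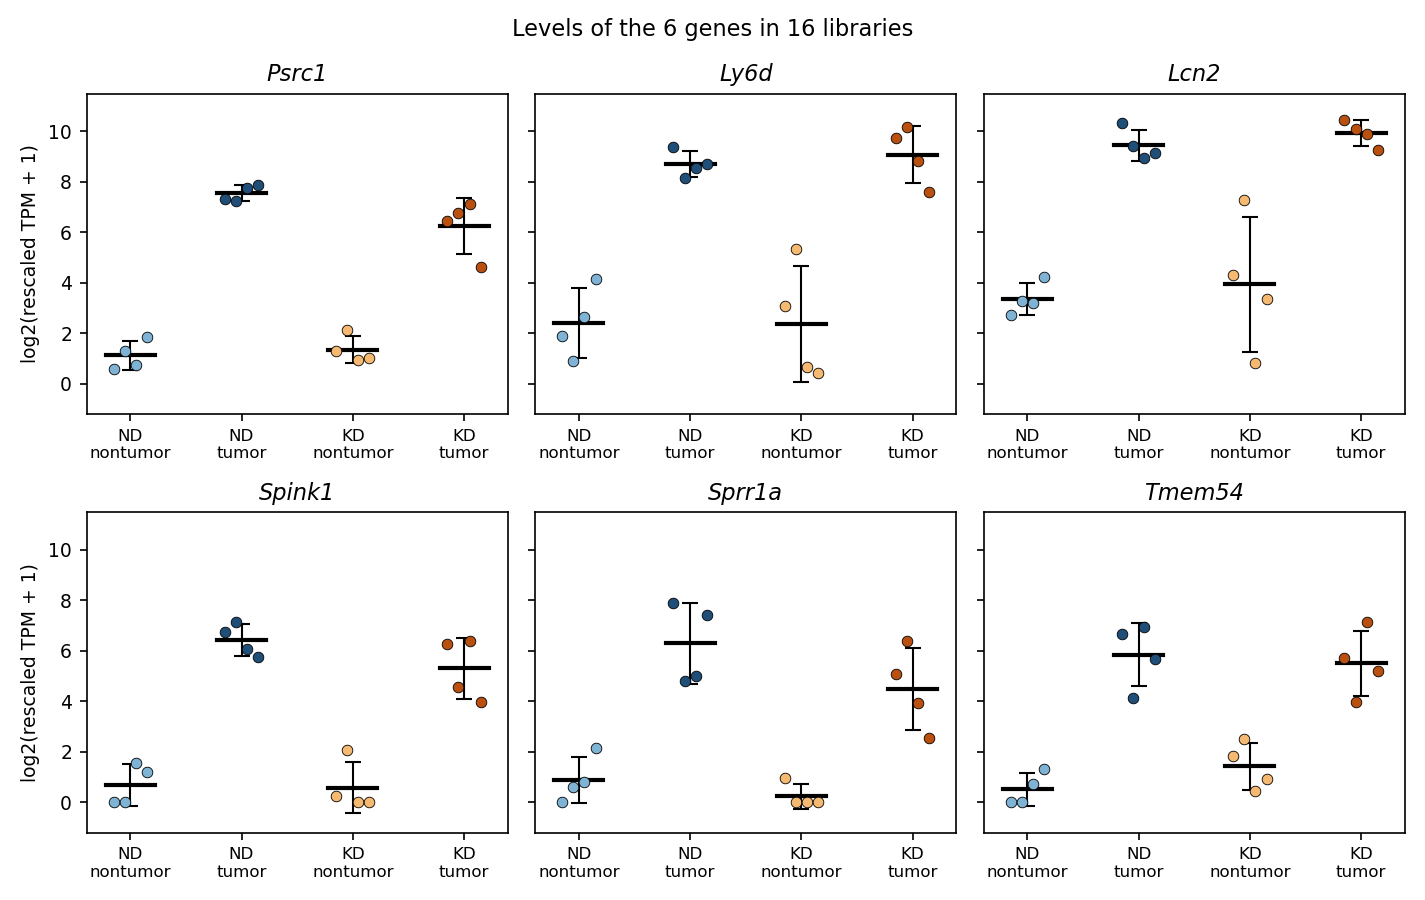
Each panel plots 1 gene; the vertical axis is log2(rescaled TPM + 1), each point is 1 of 16 libraries, and the horizontal line and bars give the mean ± SD of 4 libraries per group. In all 6 panels each tumor group lies above the nontumor group of its diet. KD nontumor 2 is the highest library of its group for Ly6d, Lcn2 and Spink1.

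Psrc1, the spindle protein, was read at 1.50, 3.43, 0.93 and 1.06 rescaled TPM in KD nontumor libraries 1 to 4, from 13 to 78 reads. The KD tumors gave 86.6, 108, 138 and 23.6, from 409 to 3572 reads. Tumor 4 was the low one, and even it stood 6.89-fold above the highest nontumor library. The difference was 4.88 ± 0.44 (SE, log2 scale, n = 4 per group), with an adjusted p of 1.82e-06 in limma. ND nontumor liver gave 0.49, 1.50, 0.67 and 2.66, and ND tumors 159, 150, 218 and 236. Group means were 1.73 ± 1.16 and 88.9 ± 48.3 in nontumor and tumor on KD, and 1.33 ± 0.99 and 191 ± 42.9 on ND (SD, n = 4). In ND nontumor liver 56.3% of listed genes had a higher mean than Psrc1, and in ND tumors 1.66% did.

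Other spindle and mitosis genes rose beside Psrc1, by smaller amounts. Of 25 tested genes of a mitotic spindle list, 14 rose in KD tumors and 0 fell, with a median difference of 0.91 against 0.01 over all tested genes. Ube2c, which helps destroy mitotic cyclins, rose by 2.25 ± 0.45 (limma adjusted p = 0.00131), from a mean of 3.68 ± 3.57 to 17.8 ± 7.02 (SD, n = 4). Cdc20, an activator of the anaphase complex, rose by 1.71 ± 0.47, the proliferation marker Mki67 by 1.69 ± 0.39 and the mitotic kinase Cdk1 by 1.50 ± 0.26. With deposited TPM in place of rescaled TPM (the deposited scale), 6 of the 25 passed as higher, 24 of 25 had positive differences, and the median was 0.85. On the normal diet 17 of the 25 passed as higher and 0 as lower, beside 14.5% and 14.2% of all tested genes.

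Neighbours of Psrc1 did not move with it as a block. Sars, a cytosolic seryl-tRNA synthetase, rose by 0.96 ± 0.20 (limma adjusted p = 0.00188) on the ketogenic diet. Atxn7l2 fell by 0.89 on the log2 scale (SE 0.22; limma adjusted p = 0.00503). On deposited TPM neither passed, with adjusted p of 0.599 for Sars and 0.101 for Atxn7l2. Sort1, the sorting receptor sortilin, differed by -0.18 ± 0.26 (limma adjusted p = 0.627) and Cyb561d1 by -0.12 ± 0.26 (limma adjusted p = 0.743). Celsr2 and Mybphl were too low to be tested, with KD tumor means of 1.21 ± 0.54 and 0.038 ± 0.076.

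Ly6d spanned a wide range in KD nontumor liver. Its 4 libraries gave 7.39, 39.2, 0.60 and 0.37 rescaled TPM, the last 2 from 2 reads and 1 read. Library 2 was therefore far above the other 3 of its group. KD tumors gave 842, 1141, 448 and 195, and the lowest was 4.98-fold above the highest nontumor library. The difference was 6.69 ± 0.90 (SE, n = 4 per group; limma adjusted p = 6.22e-05), the largest of all tested genes on this diet. It became 7.66 ± 0.75 without KD nontumor 2 and 6.04 without KD nontumor 4. ND nontumor liver gave 2.72, 0.89, 5.25 and 17.1, and ND tumors 665, 283, 377 and 417. Means were 11.9 ± 18.5, 656 ± 418, 6.48 ± 7.28 and 435 ± 163 in nontumor and tumor on KD, then nontumor and tumor on ND (SD, n = 4).

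Relatives of Ly6d moved in both directions. Of 24 listed genes of the Ly6/uPAR family 10 were tested, 3 rose in KD tumors and 2 fell, with a median of 0.47. Ly6c1, a surface marker of endothelium and of white blood cells, rose by 1.85 ± 0.38 (limma adjusted p = 0.00185), Ly6e by 1.22 ± 0.28 and Ly6a (Sca-1) by 1.14 ± 0.40. Cd59b and Cd59a, inhibitors of complement, fell by 1.19 (SE 0.41) and 1.08 (SE 0.23) on the log2 scale. On the deposited scale 1 of the 10 passed as higher and 1 as lower, and Ly6a, Ly6e and Cd59a did not pass. Ly6a also missed with voom (adjusted p = 0.0556). Cd59b lost its call without KD nontumor 2 (adjusted p = 0.0691). The Ly6d neighbours Them6 and Jrk rose by 1.89 ± 0.32 and 1.03 ± 0.25, and Jrk lost its call on the deposited scale (adjusted p = 0.0592).

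Because Ly6d also marks B-lineage progenitors, genes of B cells were read beside it. Together 24 listed genes summed to a level of 110 to 146 in KD nontumor liver, 119 to 891 in KD tumors, 152 to 315 in ND nontumor liver and 96.9 to 419 in ND tumors. The immunoglobulin light chain Igkc held 64.5% to 77.6% of the summed means. Of 19 tested, 2 rose in KD tumors and 0 fell. They were Dntt, the terminal transferase of lymphoid progenitors (3.20 ± 0.41, limma adjusted p = 3.68e-05), and Blnk, a B cell adaptor (1.89 ± 0.28). Cd79a, part of the B cell receptor, spanned 1.47 to 4.64 in KD tumors and 2.03 to 7.48 in KD nontumor liver, and Ms4a1 stayed at or below 0.61 in all 16 libraries. The part of B-lineage cells in the Ly6d values was not tested.

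Lcn2 was the most abundant member in tumors. KD nontumor libraries gave 19.2, 155, 0.76 and 9.18 rescaled TPM, from 329, 2744, 9 and 88 reads. KD tumors gave 1418, 1095, 956 and 618, so the groups were separate but nontumor library 2 reached 15.2% of the tumor mean. At that level Lcn2 was not near silent in KD nontumor liver, where 7.75% of listed genes had a higher mean. The difference was 5.99 ± 0.87 (SE, n = 4 per group; limma adjusted p = 0.000125). It was 7.10 ± 0.62 without KD nontumor 2 and 4.94 without KD nontumor 3, the lowest library. ND nontumor liver gave 5.69, 8.62, 8.16 and 17.9, and ND tumors 1290, 684, 486 and 558. Means were 46.0 ± 73.0, 1022 ± 331, 10.1 ± 5.38 and 754 ± 366 in nontumor and tumor on KD, then nontumor and tumor on ND (SD, n = 4).

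Only part of the wider acute phase and NF-kB list rose with Lcn2. Of 35 tested genes 12 rose in KD tumors and 3 fell, with a median of 0.66. Apcs, serum amyloid P, rose by 2.89 ± 0.43 (limma adjusted p = 0.000138), Il1rn, the interleukin-1 receptor antagonist, by 2.79 ± 0.34 and Orm2, an acid glycoprotein, by 2.52 ± 0.67. Hamp, which encodes the iron hormone hepcidin, fell by 4.11 on the log2 scale (SE 0.87; limma adjusted p = 0.00206), and the feedback inhibitors Socs3 and Nfkbia by 1.14 (SE 0.40) and 0.73 (SE 0.20). Orm2 did not pass with voom on recovered reads (adjusted p = 0.0549). On the deposited scale 3 of the 35 passed as higher and Hamp alone as lower, and without KD nontumor 2 Socs3 did not pass (adjusted p = 0.0839).

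Other lipocalins were split. Of 11 tested, 4 rose and 2 fell in KD tumors, and 1 and 3 passed on the deposited scale. Beside Orm2, Orm1 rose by 2.02 ± 0.43 and Ambp, which encodes alpha-1-microglobulin, by 1.33 ± 0.34. Apom, a carrier of sphingosine-1-phosphate, rose by 2.27 ± 0.32. Of these, Orm1, Ambp and Apom lost their calls on the deposited scale (adjusted p = 0.145, 0.455 and 0.0526). Ptgds, prostaglandin D synthase, fell by 3.53 on the log2 scale (SE 0.51; limma adjusted p = 0.000114) and Obp2a, an odorant-binding protein, by 2.83 (SE 0.52). Of 2 tested partners of Lcn2, Bdh2, an enzyme proposed to make a mammalian iron carrier, rose by 0.95 ± 0.31 (limma adjusted p = 0.0271). The proposed receptor Slc22a17 fell by 0.74 on the log2 scale (SE 0.25; limma adjusted p = 0.0295). Neither passed on the deposited scale.

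Neutrophils carry Lcn2 in their granules, so granule genes were read too. Ngp, Camp and Ltf, made in the same precursor stage, stayed at or below 2.16 in all 16 libraries, and Ngp was at 0 in all 4 KD tumors. S100a8 spanned 14.8 to 32.9 in KD tumors and 5.52 to 21.8 in KD nontumor liver, but 1.17 to 8.55 in ND tumors and 1.78 to 23.0 in ND nontumor liver. The summed level of 24 listed neutrophil genes ranged from 1542 to 1967 in KD tumors and from 201 to 1099 in KD nontumor liver. On the normal diet the sums were 960 to 1571 in tumors and 460 to 788 in nontumor liver. Lrg1, which hepatocytes also secrete, held 89.0% to 93.2% of the summed means. Without Lrg1 and Prtn3 the sums overlapped, at 52.2 to 123 in KD tumors and 28.3 to 79.8 in KD nontumor liver, and at 19.6 to 90.8 and 32.7 to 113 on the normal diet. Of 10 tested, 2 rose in KD tumors: Prtn3, proteinase 3 (4.94 ± 0.29, limma adjusted p = 4.66e-08), and Lrg1 (1.73 ± 0.45). Fpr1, a chemotactic receptor, fell by 0.70 on the log2 scale (SE 0.24). Prtn3 alone passed on the deposited scale.

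Macrophage genes moved both ways beside Lcn2. Of 19 tested, 5 rose and 4 fell in KD tumors. Cd14, the endotoxin co-receptor, rose by 2.41 ± 0.41, whereas the Kupffer cell genes Clec4f and Marco fell by 2.37 (SE 0.27) and 2.12 (SE 0.55) on the log2 scale. So did Timd4 and Vsig4, by 1.79 (SE 0.31) and 1.61 (SE 0.46). Lyz2 rose by 1.13 ± 0.27, C1qb by 1.01 ± 0.28 and Gpnmb by 0.81 ± 0.29, and these 3 did not pass on the deposited scale. Gpnmb also lost its call with voom (adjusted p = 0.124) and without KD nontumor 2 (0.0625). Summed over the 19 genes, the level was 1023 to 2951 in KD tumors and 297 to 621 in KD nontumor liver, against 793 to 2475 and 545 to 760 on the normal diet. Spp1, osteopontin, which tumor epithelium also makes, rose by 3.41 ± 0.55 and held 74.9% of the summed mean in KD tumors and 27.6% in KD nontumor liver. Without Spp1 the sums overlapped, at 251 to 503 and 265 to 467, and on the normal diet at 292 to 586 and 443 to 634. The part of macrophages in the Lcn2 values was not tested.

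Spink1, the trypsin inhibitor, was at 0 reads in 4 of 8 nontumor libraries. KD nontumor libraries gave 0.21, 3.25, 0 and 0 rescaled TPM, from 1, 16, 0 and 0 reads, and a count of 0 there allows up to 1.13. KD tumors gave 77.3, 22.8, 83.4 and 14.9, with 2 high and 2 lower tumors. The lowest tumor was 4.60-fold above nontumor library 2. The difference was 4.72 ± 0.58 (SE, n = 4 per group; limma adjusted p = 2.69e-05), and 5.20 ± 0.55 without KD nontumor 2. ND nontumor liver gave 0, 0, 1.98 and 1.29, and ND tumors 108, 139, 65.7 and 53.7. Means were 0.86 ± 1.59, 49.6 ± 35.7, 0.82 ± 0.98 and 91.6 ± 39.4 in nontumor and tumor on KD, then nontumor and tumor on ND (SD, n = 4).

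Genes with related inhibitor or follistatin domains rose less. Of 6 tested, 3 rose in KD tumors and 0 fell: Sparc, a matrix glycoprotein (1.86 ± 0.40, limma adjusted p = 0.00232), Fst, the activin antagonist follistatin (1.79 ± 0.30), and Fstl1 (0.98 ± 0.32). Sparc and Fstl1 did not pass on the deposited scale. On the normal diet Sparc (1.64 ± 0.40) was higher and Reck (-2.02 ± 0.29) and Spint1 (-0.90 ± 0.30) were lower. Of 19 listed exocrine pancreas genes, the usual company of Spink1, 15 stayed under 1 in all 16 libraries, among them the defining Prss2, Cpa1 and Ctrb1. Of the other 4, Ctrl reached 13.7, Klk1 4.51 and Rnase1 1.92, and Cela1, an elastase, was the highest at 62.99. Of these genes 3 were tested and 1 rose in KD tumors, Cela1 (2.40 ± 0.34, limma adjusted p = 8.72e-05), while Ctrl differed by -0.39 ± 0.59 (adjusted p = 0.641) and Klk1 by 0.69 ± 0.52 (0.322). Summed, the 19 reached 34.4 to 67.7 in KD tumors and 9.25 to 22.3 in KD nontumor liver, against 27.7 to 61.5 and 9.38 to 18.3 on the normal diet. Cela1 held most of these sums, with means of 48.1 ± 13.3 in KD tumors and 8.81 ± 4.88 in KD nontumor liver (SD, n = 4).

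Sprr1a, the cornified envelope protein with AP-1 letters upstream shown above, was the least abundant member in KD tissue. KD nontumor libraries gave 0.95, 0, 0 and 0 rescaled TPM, 5 reads in all, and a count of 0 allows up to 1.02. KD tumors gave 33.2, 82.5, 14.3 and 4.82, a 17.1-fold range, the widest of the 6 members. The lowest tumor, with 20 reads, was 5.09-fold above the highest nontumor library. The difference was 4.25 ± 0.77 (SE, n = 4 per group; limma adjusted p = 0.000666). Its call was lost with voom on recovered reads, where the difference was 6.61 ± 2.68 with an adjusted p of 0.0659. ND nontumor liver gave 0, 0.54, 0.77 and 3.50, and ND tumors 238, 27.2, 31.5 and 172, with 2 high and 2 low tumors. Means were 0.24 ± 0.47, 33.7 ± 34.6, 1.20 ± 1.57 and 117 ± 105 in nontumor and tumor on KD, then nontumor and tumor on ND (SD, n = 4).

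Most squamous genes did not follow Sprr1a. Of 49 genes of a cornified envelope and squamous list 13 were tested, 3 rose in KD tumors and 2 fell, with a median of 0.21. S100a11, a calcium-binding envelope protein also found in many other cells, rose by 2.94 ± 0.50 (limma adjusted p = 0.00042), Anxa1 by 1.81 ± 0.36 and Cstb by 1.44 ± 0.51. Lor, loricrin, the main envelope protein of skin, fell by 1.15 on the log2 scale (SE 0.21), and the desmosome protein Dsp by 0.88 (SE 0.17). On deposited TPM 1 rose and 1 fell, and Anxa1, Cstb and Dsp did not pass. Among defining squamous genes, Krt14 and Trp63 stayed at or below 0.80 in all 16 libraries. Krt5 was at 0 in all 8 nontumor libraries and reached 0.87 in KD tumors and 2.41 in ND tumors, and Ivl reached 6.93 in ND tumors and 0.81 in KD tumors. On the normal diet 4 of the 13 tested list genes passed as higher and 2 as lower. Krt5 (1.37 ± 0.25, limma adjusted p = 0.000626) and Ivl (1.51 ± 0.44, limma adjusted p = 0.0171) were among those higher. Summed over 28 listed genes, the level was 498 to 1482 in KD tumors and 139 to 596 in KD nontumor liver, and 732 to 1366 and 355 to 464 on the normal diet. S100a11, S100a10 and Cstb, which many cell types express, held 82.7% to 92.8% of the summed means. Without them the sums were 44.9 to 87.9 in KD tumors and 48.9 to 80.6 in KD nontumor liver, and 68.8 to 92.7 and 53.9 to 96.7 on the normal diet.

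Genes known as outputs of RAS, ERK and AP-1 rose in part. Of 27 tested, 9 rose and 1 fell in KD tumors, with a median of 0.63. Ier3, an early response gene, rose by 2.84 ± 0.74 (limma adjusted p = 0.00781), Il1rn by 2.79 ± 0.34, Dusp5, a nuclear ERK phosphatase, by 2.29 ± 0.47 and cyclin D1 (Ccnd1) by 1.89 ± 0.26. The gene that fell was mouse Myc (-1.11 ± 0.40), which did not pass on the deposited scale or without KD nontumor 2 (adjusted p = 0.115). On the deposited scale 4 passed as higher and 1, Fosb, as lower. The normal diet gave 12 higher and 0 lower of the same 27. None of the tested Fos and Jun family genes passed in KD tumors on rescaled TPM. Fos differed by -1.06 ± 0.88, Fosb by -2.18 ± 0.83, Jun by -0.73 ± 0.57 and Fosl2 by -0.26 ± 0.33. Junb (0.37 ± 0.41) and Jund (0.26 ± 0.34) had positive differences.

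Tmem54, the membrane protein, had at most 4 reads in 6 of 8 nontumor libraries. KD nontumor libraries gave 2.62, 4.72, 0.36 and 0.90 rescaled TPM, from 21, 39, 2 and 4 reads. KD tumors gave 51.8, 14.9, 139 and 35.6, and the lowest, tumor 2, was 3.15-fold above nontumor library 2, the narrowest gap of the 6 members. The difference was 4.07 ± 0.66 (SE, n = 4 per group; limma adjusted p = 0.000276). ND nontumor liver gave 0, 0, 0.67 and 1.54, where a count of 0 allows up to 0.54, and ND tumors 99.8, 16.7, 121 and 50.3. Means were 2.15 ± 1.97, 60.2 ± 54.4, 0.55 ± 0.73 and 72.0 ± 47.3 in nontumor and tumor on KD, then nontumor and tumor on ND (SD, n = 4).

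Simple epithelium and bile duct genes were read beside Tmem54, a gene of epithelial tissues. Of 23 tested genes of simple epithelium and progenitors, 5 rose and 1 fell in KD tumors, with a median of 0.71. Krt20, an intestinal keratin, rose by 2.21 ± 0.50, Cdh1, E-cadherin, by 2.17 ± 0.28 (limma adjusted p = 4.51e-05) and St14, the protease matriptase, by 1.45 ± 0.38. Spp1 and Sox4 (1.08 ± 0.31) were the others that rose, and Sox4 lost its call on the deposited scale (adjusted p = 0.291), where 5 of the 23 passed as higher and 0 as lower. The bile duct markers Krt19 and Epcam did not stand higher in tumors: Krt19 spanned 0.94 to 2.17 in KD tumors and 0.84 to 10.1 in KD nontumor liver, and Epcam 0.62 to 1.78 and 1.11 to 2.57. Of 13 tested bile duct genes 2 rose, Tstd1 (3.79 ± 0.36) and Spp1, and 3 fell, among them Anxa13 (-1.04 ± 0.28) and Slc4a2 (-0.65 ± 0.18). Anxa13 alone fell on the deposited scale. The summed level of 15 bile duct genes, most of it Spp1 and Tstd1, was 1202 to 3079 in KD tumors and 140 to 416 in KD nontumor liver. It was 1070 to 2321 and 214 to 321 on the normal diet. Without Spp1 and Tstd1 the sums were lower in KD tumors, at 59.5 to 65.7 against 86.3 to 96.4 in KD nontumor liver. On the normal diet they overlapped, at 79.1 to 119 in tumors and 88.7 to 112 in nontumor liver.

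**Figure D2:**
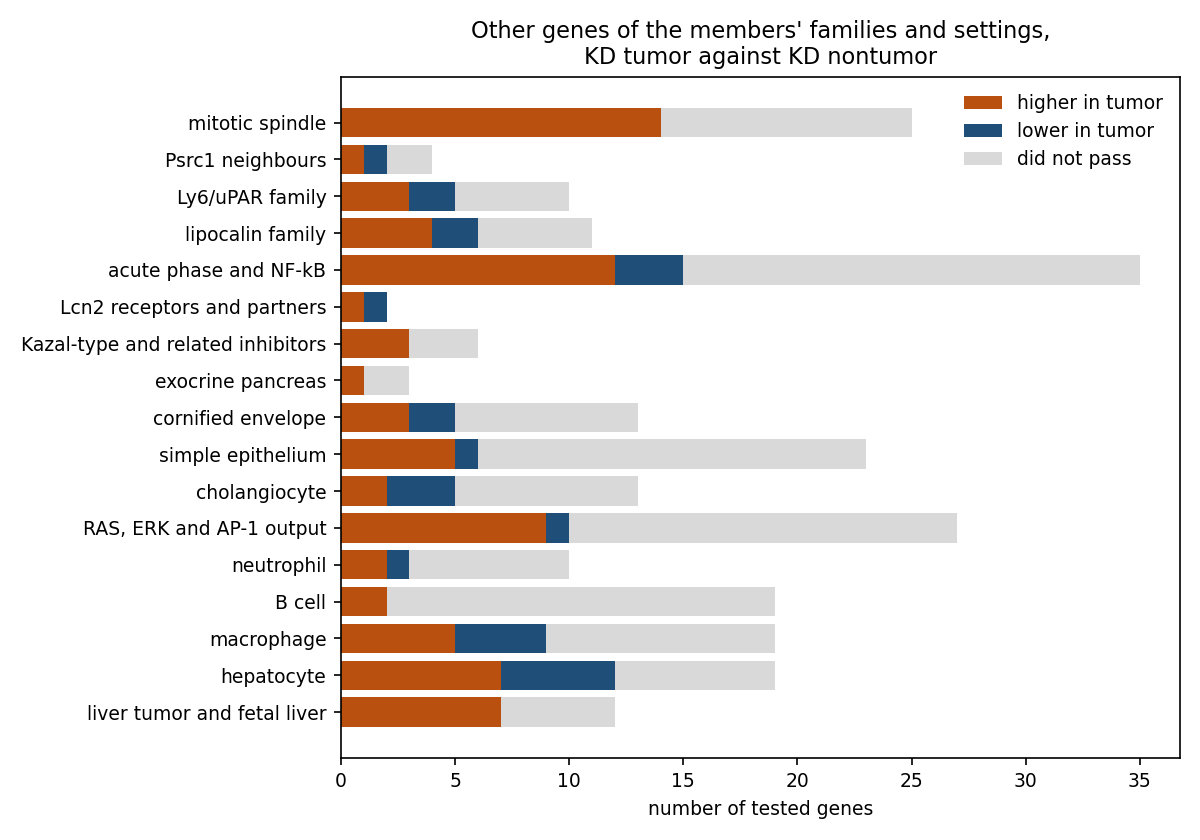
Bars count the tested genes of each list (horizontal axis, number of genes) that were higher in KD tumor, lower in KD tumor or did not pass an adjusted p of 0.05 in limma. The mitotic spindle list had 14 of 25 higher and 0 lower, while the squamous, bile duct and macrophage lists held genes in both directions; none of the 6 members is counted.

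Liver tumor genes and hepatocyte genes give the setting of these values. Of 12 tested fetal and tumor genes 7 rose and 0 fell in KD tumors, with a median of 1.67. H19, a fetal noncoding RNA, rose by 5.18 ± 1.43 (limma adjusted p = 0.0109), Akr1c18 by 4.54 ± 0.62, Afp by 3.82 ± 0.83 and the cell surface proteoglycan Gpc3 by 3.45 ± 0.52. Of 19 tested hepatocyte genes 7 rose and 5 fell, and on the deposited scale 0 rose and 2 fell. The cytochromes Cyp1a2 and Cyp2e1 fell by 3.11 (SE 0.51) and 2.14 (SE 0.51) on the log2 scale. Serpina1e, Cps1 and Ass1 fell by 1.66, 1.65 and 0.90, but lost their calls on the deposited scale (adjusted p = 0.0791, 0.0541 and 0.321), and Ass1 also without KD nontumor 2 (0.0632). Haptoglobin (Hp) rose by 1.94 ± 0.45 and Serpina1b by 1.69 ± 0.38, and neither passed on the deposited scale.

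The diets were compared within tissue without a test, since ND values chose the members. In tumors, Psrc1 was the 1 member of 6 whose groups did not overlap: KD tumors (23.6 to 138) lay below ND tumors (150 to 236), with a ratio of means of 0.466 and a log2 difference of -1.32 ± 0.44. This held on the deposited scale too, and 10.5% of tested genes were lower in KD tumors without overlap. The ratio of KD to ND tumor means was 1.51 for Ly6d, 1.35 for Lcn2, 0.542 for Spink1, 0.288 for Sprr1a and 0.837 for Tmem54. Their log2 differences, with SE, were 0.38 ± 0.90, 0.48 ± 0.87, -1.12 ± 0.58, -1.80 ± 0.77 and -0.35 ± 0.66, and all 5 overlapped. In nontumor liver the diets overlapped for all 6 members, whereas 3.19% of tested genes were higher on the ketogenic diet without overlap and 2.79% were lower. Nontumor means on KD over ND ranged from 0.197 (Sprr1a) to 4.55 (Lcn2). Without KD nontumor 2 the Lcn2 ratio was 0.960, that of Ly6d 0.430 (1.83 with it) and that of Tmem54 2.34 (3.89 with it).

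**Figure D3:**
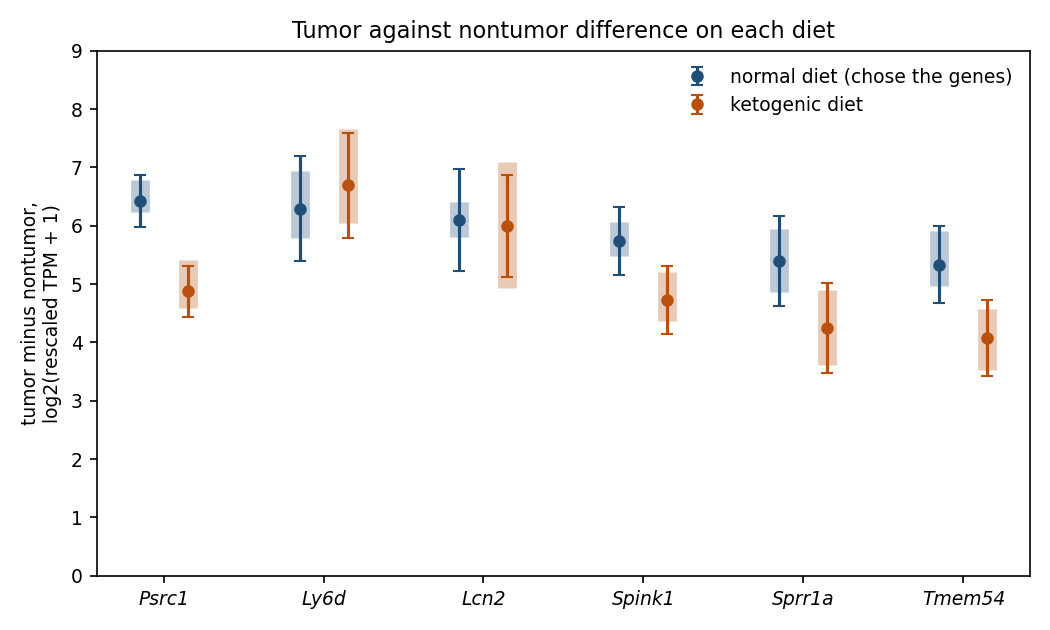
Points give the tumor minus nontumor difference on the log2(rescaled TPM + 1) scale, from 4 against 4 libraries. Both the normal diet that chose the genes and the ketogenic diet are shown. Bars give the SE from 1 fit of all 16 libraries, so each gene has the same SE on both diets. With only the groups compared, the Lcn2 SE was 1.07 on KD and 0.37 on ND. Shaded bands span the values with each of 16 libraries left out in turn. All 12 differences and bands lie above 3.5, and the difference between the diets was not tested.

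Tumors did not rank alike for all members. KD tumor 4 was the lowest of its group for 5 of 6 members, all but Tmem54, which was lowest in KD tumor 2. KD tumor 3 was the highest for Psrc1, Spink1 and Tmem54, KD tumor 2 for Ly6d and Sprr1a, and KD tumor 1 for Lcn2. Among ND tumors, number 1 was the highest for Ly6d, Lcn2 and Sprr1a, and number 2 was the lowest for Psrc1, Ly6d, Sprr1a and Tmem54. The highest tumor exceeded the lowest 2.29-fold (Lcn2) to 17.1-fold (Sprr1a) on the ketogenic diet and 1.58-fold (Psrc1) to 8.74-fold (Sprr1a) on the normal diet. No tumor lacked a member: the lowest tumor value of any of the 6 was 4.82, Sprr1a in KD tumor 4.

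**Figure D4:**
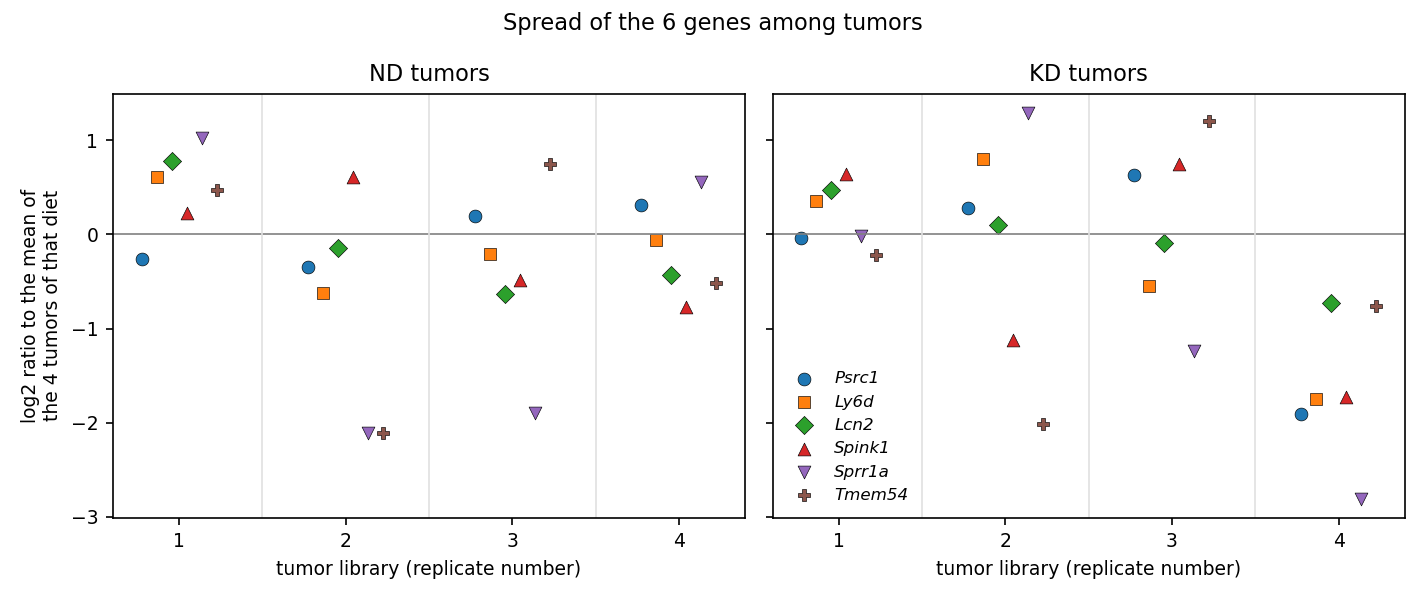
Each symbol gives 1 member in 1 tumor library (horizontal axis, replicate number) as the log2 ratio to the mean of the 4 tumors on that diet (vertical axis). KD tumor 4 lies below the mean for all 6 members, and ND tumor 2 is far below it for Sprr1a and Tmem54.

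KD nontumor 2 was the highest KD nontumor library for 5 of 6 members and read 0 for Sprr1a. Libraries 1 and 2 both exceeded libraries 3 and 4 for Psrc1, Ly6d, Lcn2 and Tmem54. Library 1 read 1.50, 7.39, 19.2 and 2.62 for these, and libraries 3 and 4 at most 1.06, 0.60, 9.18 and 0.90. Summed hepatocyte genes split alike, at 126741 and 133213 against 42735 and 81246. So did summed neutrophil genes, at 1064 and 1099 against 201 and 364, but Lrg1 held 93.2% of their summed mean in this group. Without Lrg1 the neutrophil sums of KD nontumor liver spanned 29.4 to 81.4. The cause of this split was not tested. Against the mean of the other 3, KD nontumor 2 was 2.96-fold higher for Psrc1, 3.65-fold for Tmem54, 14.1-fold for Ly6d and 15.97-fold for Lcn2. For Spink1 it held 16 reads against 1 read in the other 3. As a share of the KD tumor mean it reached 3.86% for Psrc1, 5.97% for Ly6d, 6.55% for Spink1 and 7.84% for Tmem54. The summed level of 18 fetal and tumor genes was 711 in this library and 64.0 to 256 in the other 3, while its Afp, at 2.42, was the lowest of the 4. Gpc3, the other defining tumor gene, spanned 0.083 to 4.24 over the KD nontumor libraries and 9.68 to 42.1 in KD tumors. Whether tumor tissue contributed to this library was not tested. Without it all 6 members still passed on the ketogenic diet, with differences of 4.15 ± 0.85 (Sprr1a), 4.42 ± 0.69 (Tmem54), 5.12 ± 0.46 (Psrc1), 5.20 (Spink1), 7.10 (Lcn2) and 7.66 (Ly6d).

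Similarity of profiles was measured as the mean absolute difference in log2(rescaled TPM + 1) over 16 libraries, after centring each gene on its own mean. Genes were not scaled, and the libraries include those of the normal diet that chose the members. A large rise in tumor therefore brings genes close by itself, and these distances are a description. Among the members, Psrc1 and Spink1 were the closest pair (0.585) and Ly6d and Lcn2 the next (0.657), while Ly6d and Sprr1a were the farthest apart (1.49). Pnpla5, a triglyceride lipase, was the nearest other gene to Psrc1 (0.674) and Tmem54 (0.612). Erich4 was the nearest to Spink1 (0.646) and Sprr1a (0.809). Akr1c18, a steroid dehydrogenase, was the nearest to Lcn2 (0.768) and Ly6d (1.00). Next in order came Prtn3 and Erich4 for Psrc1, to Pnpla5 and Erich4 for Ly6d, and to Apoa4 and Pnpla5 for Lcn2. For Spink1 they were Pnpla5 and Prtn3, for Sprr1a Cpe and Cdkn2b, and for Tmem54 Erich4 and Phgdh. Pnpla5 itself read 55.8 ± 48.5 in KD tumors and 0.92 ± 1.71 in KD nontumor liver (SD, n = 4), and Erich4 39.2 ± 29.3 and 0.98 ± 1.38. Among the nearest genes, KD nontumor means were highest for Apoa4, an apolipoprotein (364 ± 448), and Akr1c18 (30.9 ± 32.1).

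Most tested genes next to the members did not pass as higher. Within 100 kb of the 6 genes, 64 other genes were annotated and 22 tested, of which 5 rose and 3 fell in KD tumors. Over all tested genes 16.3% were higher and 16.2% lower, and no difference from these shares was tested. Atxn7l2 lies outside this window. Besides Sars, Them6 and Jrk, the neighbours that rose were Fndc5 (0.81 ± 0.30) and Yars, a tyrosyl-tRNA synthetase (0.50 ± 0.17), near Tmem54. Near Lcn2, Slc25a25, a mitochondrial carrier, fell by 2.26 (SE 0.37), Ciz1 by 0.74 (SE 0.18) and Gm13413 by 1.21 (SE 0.44) on the log2 scale, and 0 of 8 tested neighbours rose. On the deposited scale Fndc5, Yars and Ciz1 did not pass (adjusted p = 0.299, 0.891 and 0.214), with voom Fndc5 and Gm13413 did not (0.230 and 0.0956), and without KD nontumor 2 Fndc5 did not (0.0584). The 2 tested neighbours of Sprr1a did not pass, and Ivl, one of them, differed by 0.21 ± 0.44.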

How the data were processed

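The submitters' processing notes name FastQC, HISAT2, SAMtools, featureCounts and the mm10 build, without versions. The authors deposited TPM for 20601 genes in 16 columns; how counts became TPM, the annotation and the choice of listed genes are not given in the sources used here. Nontumor columns carry P where titles carry N and were matched by diet letters and number.

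TPM were divided by median-of-ratios factors over 12119 genes above 0 in all libraries. Genes with deposited TPM of at least 1 in at least 4 libraries were tested (13432) with limma 3.58.1 (R 4.3.3), with a variance trend, on log2(rescaled TPM + 1), all 16 libraries in 1 fit, no block, and Benjamini-Hochberg adjustment at 0.05. With GENCODE M21 exon lengths, TPM of 19615 genes (95.21%) were whole reads within 0.001 reads; 986 needed another length. Recovered reads gave depth and a voom alternative. Limits for a count of 0 are 3 reads and cover counting error only. Same-numbered tumor and nontumor samples deviated together (correlation over 0.1) in 2 of 8 pairs, so numbers were not taken as pairs. No 2 libraries of a group were copies. Both computations were tested on simulated data.

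Members and gene lists were chosen with earlier results of these data known. Named genes are the members, their 3 nearest profiles without predicted or clone names, and genes next to the members in rank. Up to 4 passing genes of each list with the largest change were named, with all listed neighbours of Psrc1 and partners of Lcn2. Genes within 100 kb and list genes making up counts of 5 or fewer were named after their values were seen. So were the Fos and Jun family genes. Single values of 2 list genes are not reported here. Alternatives were the deposited scale, a pseudocount of 0.1, no filter, only the groups compared, the replicate block, voom and each library left out; ratios of means without KD nontumor 2 or ND nontumor 4 were added after seeing the data.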

Additional observations from a re-analysis of the deposited data

Results flagged for a closer look

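In 3 of 24 groups of 4 libraries, 1 library of a member stood far from the other 3 by Dixon's test. Chance gives this in about 1 of 20 groups if values are normally distributed. These values have a floor at 0, so that rate need not hold and 3 of 24 is not read as an excess. All 3 flagged groups are in KD nontumor liver. Lcn2 read 155 rescaled TPM in KD nontumor 2, against 0.76 to 19.2 in the other libraries of the group. Spink1 read 3.25 in the same library (16 reads), against 0 to 0.21. Sprr1a read 0.947 in KD nontumor 1, from 5 reads, against 0 in the other 3. With 3 values at 0, the test flags any positive value.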

How the results depend on the processing

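For the 6 members on the ketogenic diet, 137 of 138 alternative values kept direction and call, and the exception was Sprr1a with voom (6.61, adjusted p = 0.0659). Many of these alternatives could move the difference little. Leaving out an ND library removes no KD sample. No filter, the replicate block and only the groups compared left each difference the same and changed only its SE and adjusted p. On the normal diet all 138 stayed positive, and 6 moved beyond the spread between replicates: with a pseudocount of 0.1 Psrc1 was 7.29, Spink1 7.69 and Tmem54 7.40, and with voom 7.54, 7.51 and 7.71. The number of genes past the threshold on the ketogenic diet was 4364 (2189 higher, 2175 lower). It was 1111 (387 higher, 724 lower) on deposited TPM, where the median of all genes was -0.26, and 3263 to 4504 with each library left out. With the replicate block 3908 genes passed, and all 6 members kept their call, from an adjusted p of 2.52e-05 (Psrc1) to 0.00191 (Tmem54); same numbers correlated by -0.112 to 0.164, and 2 of 8 samples matched their own number best. Leaving out KD nontumor 2 and ND nontumor 4 together, chosen after seeing the data, changed no member's call.

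Depth limits the low values: nontumor levels of Spink1, Sprr1a and Tmem54 rest on 0 to 39 reads per library, so their fold changes depend on the pseudocount. A list gene that did not pass is not shown to be unchanged. ND nontumor 4 combines a low listed share with the largest rescaling. Cell makeup was read from marker genes only, and no cell counts were analysed here.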
